A study of Mus musculus with 16 samples.

Results

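The genes described here encode the oxidative phosphorylation system, in the nucleus and in the mitochondrial genome. They were chosen by name from a table of 49315 genes: symbols that begin with Nduf followed by a, b, c, s or v, with Cox4 to Cox8, Uqcr or Atp5, or with mt-Nd, mt-Co, mt-Cytb or mt-Atp, together with Sdha, Sdhb, Sdhc and Sdhd. Of 112 such rows, 102 had at least 10 counts in at least 4 of 16 libraries and were kept, 89 of them nuclear and 13 mitochondrial. The member closest above that limit was mt-Nd3, with 2 to 13 counts per library and 4 libraries at 10 or more. The 10 rows left out had no library at 10 counts. They were 7 named pseudogenes (Atp5k-ps2, Atp5l-ps1, Atp5l-ps2, Atp5l2-ps, Ndufab1-ps, Uqcrh-ps1 and Uqcrh-ps2) and the isoform genes Cox7b2, Cox8b and Cox8c, with a highest count of 8, in Cox8b.

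RNA of the mouse hippocampus was sequenced in 4 groups of 4 animals. The groups were wild type on a standard diet, Kcna1 knockout on a standard diet, wild type on a ketogenic diet and Kcna1 knockout on a ketogenic diet. Kcna1 encodes a potassium channel subunit, mice without it serve as a model of epilepsy, and a ketogenic diet is rich in fat and poor in carbohydrate. The knockout allele, strain, age, sex and length of feeding were not given in the labels.

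Oxidative phosphorylation makes most of the ATP of neurons. Electrons from NADH enter at complex I and electrons from succinate at complex II, pass through complex III and reach oxygen at complex IV, and the proton gradient built on the way drives the ATP synthase, complex V. The mitochondrial genome encodes a few core subunits of complexes I, III, IV and V, all other subunits are encoded in the nucleus, and complex II is wholly nuclear. The brain is among the organs that depend most on this system, and ketone bodies, which replace part of the glucose supply on a ketogenic diet, are oxidised through it.

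Total counts ranged from 13440230 to 22309504 per library. Kcna1 checked the genotype labels. It lay at 107 to 130 CPM, the count after every library is scaled to one size, in the 8 wild type libraries and at 43.4 to 47.2 CPM in 7 of the 8 knockout libraries. The library labelled knockout on the standard diet KC888LL lay at 82.0 CPM, outside both ranges, and results that turn on it are given with and without it. Xist was under 50 CPM in KC872RL and KC873RR (knockout, standard diet), KC890RL (wild type, standard diet) and KC846L (wild type, ketogenic diet), and above 700 CPM in the other 12 libraries. The neuron, astrocyte, microglia and oligodendrocyte marker lists were expressed in full. In a tissue sample, fewer cells of a type and less RNA per cell cannot be told apart.

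The mitochondrial mRNAs fell into 2 sets in the deposited counts, and sequences are shown because they bear on that split. The 7 genes mt-Nd1, mt-Nd2, mt-Co1, mt-Nd4, mt-Nd5, mt-Nd6 and mt-Cytb held 6062542 counts over the 16 libraries. The 6 genes that lie side by side from mt-Co2 to mt-Nd4l (mt-Co2, mt-Atp8, mt-Atp6, mt-Co3, mt-Nd3 and mt-Nd4l) held 1962 counts, which was 0.0324% of the counts of all 13. In the annotation used here (GENCODE M21, GRCm38), a stretch of chromosome 1 (chr1:24611535-24616197, minus strand) holds 7 genes annotated as unprocessed pseudogenes that match this part of the mitochondrial genome. The first 60 bases of mt-Co2 and mt-Co3, each followed by its copy, are printed to show the match, all in lower case because no base differs.
mt-Co2 (chrM:7013-7072, plus strand): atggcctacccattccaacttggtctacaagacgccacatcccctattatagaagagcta
Gm28661 (chr1:24615506-24615565, minus strand): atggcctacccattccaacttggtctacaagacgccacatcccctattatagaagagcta
mt-Co3 (chrM:8607-8666, plus strand): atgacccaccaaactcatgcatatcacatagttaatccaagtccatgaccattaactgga
Gm28437 (chr1:24613912-24613971, minus strand): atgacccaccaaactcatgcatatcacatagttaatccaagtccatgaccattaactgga

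The identity extended over whole genes. Gm28661 matched mt-Co2 over 681 of 684 bases with 681 identical, Gm10925 matched mt-Atp6 over 678 bases and Gm28437 matched mt-Co3 over 783 bases, all without a substitution. Gm28438 matched mt-Nd3 over 342 bases and Gm10222 matched mt-Nd4l over 294 bases, again at 100% identity. Gm28439 covered the first 876 bases of mt-Nd4, a subunit gene of complex I that is 1378 bases long. Gm29216 covered 483 bases of mt-Co1, with 1 substitution (A1066T, counted from the first base of mt-Co1, its base first).

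As a measure that does not depend on alignment, every 50-base stretch of each transcript was searched for in the transcripts of all other genes. The share found elsewhere was 100% for mt-Co2, 99.9% for mt-Co3, 99.5% for mt-Atp6, 98.8% for mt-Nd4l and 98.0% for mt-Nd3. It was 62.2% for mt-Nd4 and 51.1% for mt-Co1, 8.19% for mt-Nd2, 7.61% for mt-Nd5, and 0% for mt-Nd1, mt-Nd6, mt-Cytb and mt-Atp8. The stretches of mt-Co1 were shared with 3 other genes, of which Gm29216 shared most but not all of them. mt-Atp8, which encodes a small subunit of the ATP synthase, lies between mt-Co2 and mt-Atp6. Its last 43 of 204 bases match Gm10925 without a substitution, a match too short for a 50-base stretch. The interval between the matched parts of those neighbours is 233 bases on the mitochondrial genome and also 233 bases on chromosome 1, where no gene is annotated; the genome sequence of that interval was not used here.

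In the 6 genes the median count per library was 22.5 for mt-Co2, 10 for mt-Atp8, 30.5 for mt-Atp6, 30.5 for mt-Co3, 6.5 for mt-Nd3 and 23.5 for mt-Nd4l. The highest count of any of the 6 in any library was 40, while the lowest count of any of the 7 was 4613, for mt-Nd6 in a knockout library on the ketogenic diet. The 7 rows of the chromosome 1 copies held 12244 counts in all, of which Gm28438 held 7300, so the copies together held more counts than the 6 mitochondrial genes but far fewer than any one of the 7. How reads with more than 1 match were treated was not given in the sources used here and was not tested. Levels of the 6 genes are therefore not read as levels of their mRNAs, and mt-Nd4 and mt-Co1 are uncertain in level because part of each is shared.

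**Figure D1:**
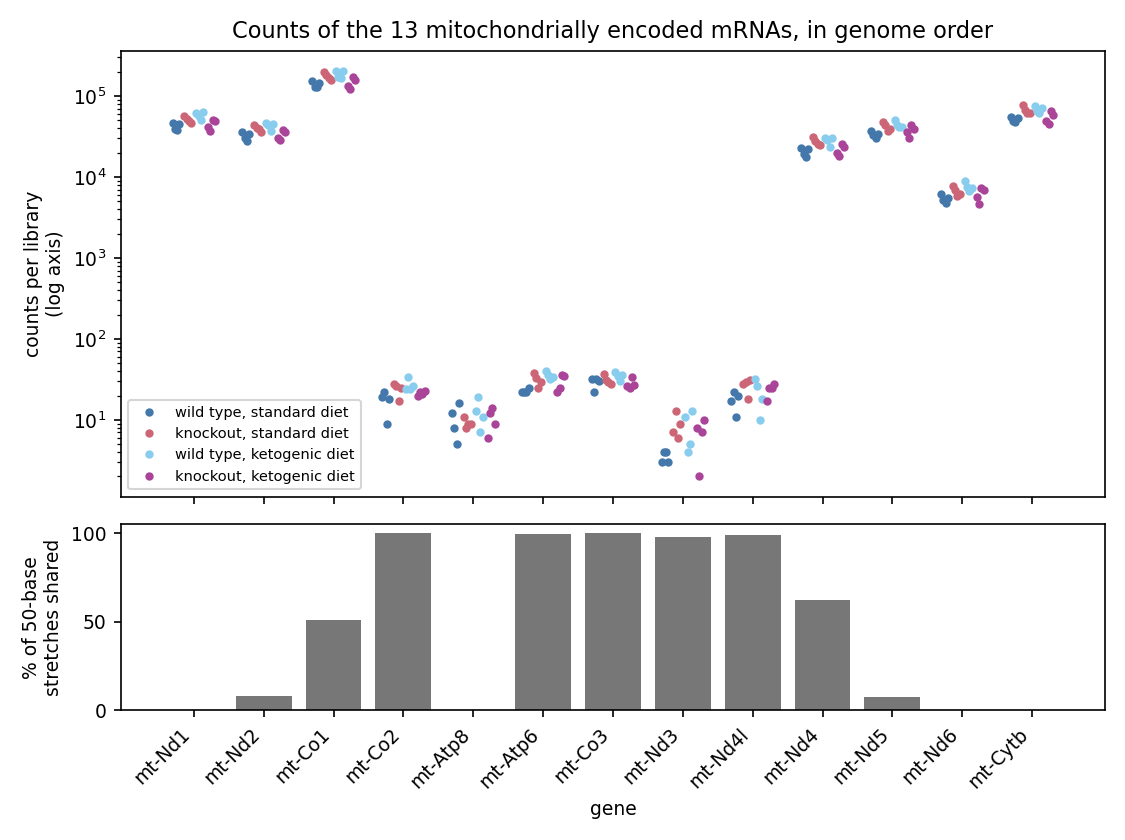
Upper panel: counts per library (log axis) of the 13 mitochondrial mRNAs in genome order, 1 point per library, coloured by group. Lower panel: percentage of each transcript's 50-base stretches found in another gene; the 6 genes from mt-Co2 to mt-Nd4l have at most 40 counts in any library, and mt-Atp8 alone among them shares 0%.

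Among nuclear members, 37 of 89 shared no 50-base stretch with another gene and 8 shared more than 20%. The largest shares were 64.1% for Ndufaf2, an assembly factor of complex I, 41.6% for Atp5o, a peripheral stalk subunit of the ATP synthase that is overlapped by the antisense gene Gm15976, and 38.3% for Atp5g2, which encodes the c ring subunit and has processed pseudogenes. Whether the counting used strand was not given in the sources used here, so reads of Atp5o and Gm15976 cannot be told apart in the part where they overlap.

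Levels between members were compared as CPM per kb of annotated exon, averaged over the 16 libraries. The length joined the exons of all annotated transcripts of a gene, for example 419 bases for Ndufa1 and 6883 bases for Ndufab1. Which transcripts were expressed was not tested, so levels, ranks and medians per kb depend on the annotation. The 89 nuclear members had a median of 35.5 CPM per kb, and the 7 mitochondrial genes with at least 4613 counts in every library, called higher-count genes from here, had a median of 2091 CPM per kb, from 729 for mt-Nd6 to 6145 for mt-Co1. Of these 7, mt-Nd4 and mt-Co1 are partly copied on chromosome 1, as given above. By complex, the nuclear medians were 32.5 for complex I (36 genes), 43.0 for complex II (4 genes), 56.7 for complex III (8 genes), 47.8 for complex IV (17 genes) and 45.5 for complex V (16 genes). The 8 assembly factors that the name rule catches, which help to build complex I and are not part of it, had a median of 8.52 CPM per kb. Every one of them lay below the median of complex I, with Ndufaf2 lowest at 3.01.

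Among the nuclear genes of complex I the highest level was that of Ndufa8, an accessory subunit, at 92.3 CPM per kb. In complex II, Sdha, the flavoprotein that oxidises succinate, was highest at 99.1 CPM per kb and Sdhc, a membrane anchor, lowest at 25.8. In complex III the levels of the 8 nuclear genes stayed between 31.2 for Uqcrq, a small accessory subunit, and 63.5 for Uqcr11. The catalytic F1 subunits Atp5a1 and Atp5b, the alpha and beta chains of the ATP synthase, reached 251 and 216 CPM per kb. Cox6a1, Cox8a and Cox4i1, nuclear subunits of cytochrome c oxidase, stood at 287, 266 and 212 CPM per kb.

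Subunits of complex IV exist in tissue forms, and the hippocampal counts separated the forms by 40.2-fold or more. Cox4i1 exceeded Cox4i2, a form known from lung, by 238-fold per kb, and Cox6a1 exceeded Cox6a2, the heart and muscle form, by 218-fold. Cox6b1 exceeded the testis form Cox6b2 by 77.6-fold, Ndufa4 exceeded Ndufa4l2 by 61.1-fold, and Cox7a2 exceeded the heart and muscle form Cox7a1 by 40.2-fold. The 5 minor forms all lay between 0.888 and 1.54 CPM per kb, and Cox8b, a heart and muscle form, and Cox8c were among the genes left out for low counts. The muscle marker list summed to 40.9 to 58.7 CPM in every library, with Ckm, Myh1, Myh4 and Myl2 at a median under 1 CPM.

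**Figure D2:**
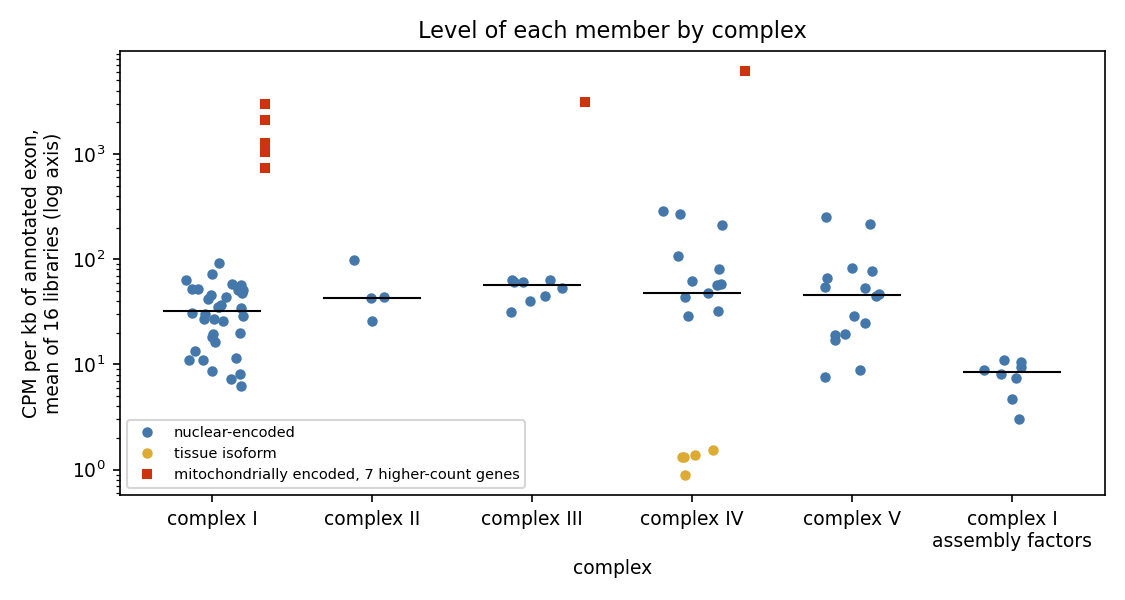
Level of each nuclear member (circles) and of the 7 higher-count mitochondrial genes (squares), as the mean CPM per kb of annotated exon over 16 libraries on a log axis, by complex; bars are medians of the nuclear genes. The 5 minor tissue forms lie between 0.888 and 1.54 CPM per kb, below every other nuclear member, and the mitochondrial genes lie above all nuclear ones.

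Promoters of the nuclear members were read because many respiratory genes are known to be controlled by NRF1 and by factors of the ETS and YY1 families. Of the 89 genes, 72 were found by symbol in the RefSeq promoter table (GRCm38.p6), with 77 promoters of 250 bases before to 50 bases after the start. The NRF1-like motif (GCGC, any 2 bases, then GCGC, which is the same on both strands) occurred in 22 of the 77 (28.6%), against 6.23% of all 32851 promoters in the table. The ETS core CGGAAG, on either strand, occurred in 33 (42.9%, against 16.9%), and the YY1-like AAGATGGCG, on either strand, in 8 (10.4%, against 1.40%). The median G or C content was 58.3% in member promoters and 52.7% in all promoters, and the shares were not adjusted for it. Ndufab1 and Atp5o, the nuclear genes of smallest p in the first 2 contrasts described below, both held the NRF1-like motif, and their promoters are shown as examples with the match in capitals; in Atp5o, 2 matches overlap. The promoters of Atp5d and Atp5g1, also named in those contrasts, held none of the 3 motifs, and the motifs were not tested against the fold changes.
Ndufab1 (chr7:122101799-122102098, minus strand): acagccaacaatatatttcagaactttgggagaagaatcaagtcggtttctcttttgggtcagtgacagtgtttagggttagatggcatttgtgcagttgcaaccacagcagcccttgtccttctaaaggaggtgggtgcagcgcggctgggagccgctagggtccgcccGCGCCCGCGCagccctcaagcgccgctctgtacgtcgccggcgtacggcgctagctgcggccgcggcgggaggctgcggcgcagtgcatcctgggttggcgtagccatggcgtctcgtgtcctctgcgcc
Atp5o (chr16:91931581-91931880, minus strand): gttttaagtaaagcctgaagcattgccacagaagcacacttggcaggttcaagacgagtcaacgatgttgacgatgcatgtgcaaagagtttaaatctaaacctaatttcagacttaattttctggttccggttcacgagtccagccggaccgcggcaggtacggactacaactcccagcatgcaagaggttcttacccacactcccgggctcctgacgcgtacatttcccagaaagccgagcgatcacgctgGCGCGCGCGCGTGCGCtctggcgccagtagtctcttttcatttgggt

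The share of each library's counts that fell in the members was narrow. The 13 mitochondrial genes held between 2.03% and 2.51% of a library's counts and the 89 nuclear genes 0.738% to 0.805%. The mitochondrial share was 2.13% ± 0.110 (SD, n = 4) in standard-fed wild type mice and 2.35% ± 0.181 (SD, n = 4) in the standard-fed knockout, and 2.26% ± 0.147 (SD, n = 4) and 2.14% ± 0.0596 (SD, n = 4) on the ketogenic diet. In the standard-fed knockout it measured 2.42% in KC872RL, 2.51% in KC873RR, 2.38% in KC893RL and 2.09% in KC888LL, so 3 libraries lay above every wild type library on that diet and KC888LL lay within the wild type range. All 4 groups overlapped. KC872RL and KC873RR also had the highest summed microglial markers, 584 and 579 CPM, against at most 307 CPM in the standard-fed wild type libraries, and were the low-Xist libraries of the group; their part in the share was not tested.

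**Figure D3:**
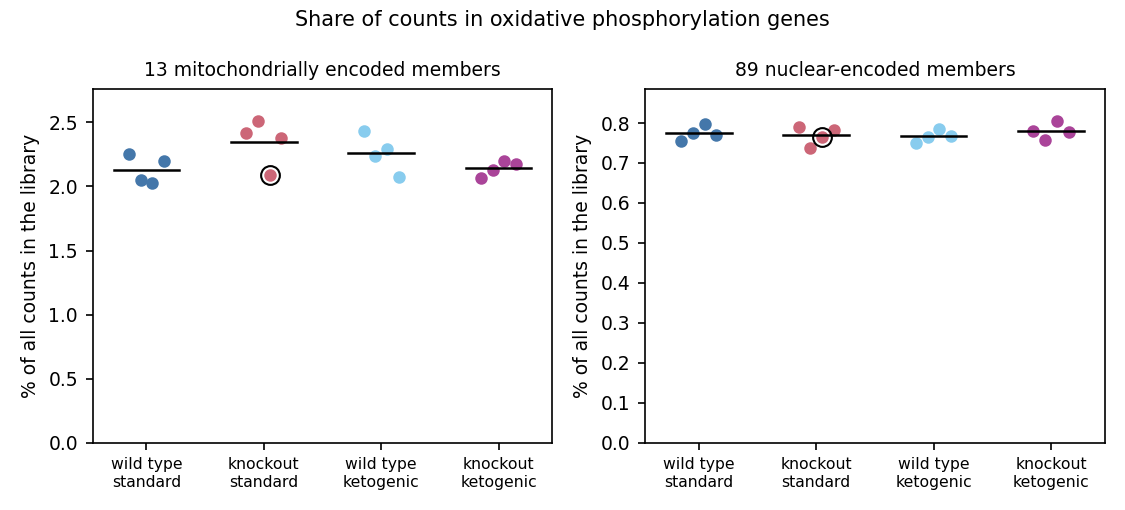
Percentage of all counts in a library that fell in the 13 mitochondrial members (left) and the 89 nuclear members (right), 1 point per library and a bar at the group mean, axes from 0; the ringed point is KC888LL. Mitochondrial shares run from 2.03% to 2.51% and nuclear shares from 0.738% to 0.805%, and the groups overlap in both.

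Across libraries, with the group means removed, the 7 higher-count mitochondrial genes moved together: the median Pearson r over their 21 pairs was 0.79 (range 0.69 to 0.93). Over the 3916 pairs of nuclear members it was 0.19, and over the 623 pairs of a nuclear with a mitochondrial gene it was -0.18. These are descriptions over 16 libraries that share depth and composition.

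Knockout was compared with wild type on the standard diet to ask what loss of Kcna1 changes. With edgeR's quasi-likelihood test and Benjamini-Hochberg adjustment over 17469 genes, 0 of the 101 tested members were called, against 0.00572% of all genes (mt-Nd3 failed the low-count filter of the test). limma-voom and DESeq2 also called 0. At an unadjusted p under 0.05 there were 9 members, against 14.3% of all genes, 3 of them higher and 6 lower, against 7.64% and 6.69%. The median log2 fold change was -0.04 for nuclear members and 0.11 for mitochondrial members, beside 0.00 for all genes; the former was -0.01 without KC873RR and -0.02 without KC897RR, and the latter 0.16 without KC888LL. Of the 101 members 41 lay above 0, against 51.1% of all genes. Of the nuclear members 58 of 89 lay below 0, while 7 of the 7 higher-count mitochondrial genes lay above it, with a median of 0.10. The median of all mitochondrial members includes genes from mt-Co2 to mt-Nd4l, whose counts are not read as mRNA levels. In this contrast all 9 microglial markers lay above 0 (median 0.52, 7 at an unadjusted p under 0.05), as did all 8 astrocyte markers (median 0.21, 2 at that p), while 6 of 8 neuron markers lay below 0 (median -0.11, 4 of them lower and 2 higher at that p), and 0 of each list were called by edgeR. All 5 blood markers lay above 0 (median 0.34, 1 at that p), as did 6 of 7 endothelial markers (median 0.20, 2 at that p). All 6 choroid plexus markers lay below 0 (median -0.30, 0 at that p), and 0 of each of these lists were called. The neuron list summed to 10797 to 11327 CPM in wild type and 9236 to 10910 CPM in the knockout, and the astrocyte list to 4663 to 5210 CPM and 4833 to 7211 CPM. The part of these shifts in the values of the members was not tested.

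Ndufab1, the acyl carrier protein of complex I, had the smallest p. It measured 58.7, 55.7, 59.7 and 56.9 CPM in the wild type and 52.9, 48.6, 53.1 and 52.5 CPM in the knockout. The 4 knockout values all lay below the 4 wild type values, and the log2 fold change was -0.16 ± 0.05 (SE; edgeR, adjusted p = 0.209). Uqcrq, an accessory subunit of complex III, measured 55.5, 60.3, 60.7 and 61.4 CPM in wild type and 54.7, 50.9, 54.3 and 55.4 CPM in the knockout, with a log2 fold change of -0.14 with an SE of 0.05 (edgeR, adjusted p = 0.251). Its groups did not overlap, but the lowest wild type and the highest knockout library were next to each other. Atp5d, the delta chain of the F1 part of the ATP synthase, had a log2 fold change of -0.14 with an SE of 0.05 (edgeR, adjusted p = 0.257), and its groups overlapped because KC888LL lay at 107 CPM, inside the wild type range of 102 to 114 CPM.

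In the other direction, 2 of the 3 members at an unadjusted p under 0.05 were mitochondrial. The third was the nuclear gene Cox7a1, a tissue form near 1 CPM, at 1.06 ± 0.40 (SE; edgeR, adjusted p = 0.258). mt-Nd4, a core membrane subunit of complex I, measured 1448, 1300, 1239 and 1434 CPM in wild type and 1592, 1629, 1369 and 1575 CPM in the knockout, the third being KC888LL. Without that library all knockout values were above all wild type values; with it they overlapped. The log2 fold change was 0.19 ± 0.07 (SE; edgeR, adjusted p = 0.234). mt-Cytb, cytochrome b of complex III, showed the same order, with 3306 to 3504 CPM in wild type and 3885, 3957, 3378 (KC888LL) and 3908 CPM in the knockout, and a fitted log2 difference of 0.16 ± 0.06 (SE; edgeR, adjusted p = 0.259). mt-Co1, the catalytic subunit of complex IV, had 0.12 ± 0.06 (SE; edgeR, adjusted p = 0.355).

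The count of called members in this contrast depended on KC888LL. Without it, 3 members were called by edgeR, mt-Nd4 at 0.23 (adjusted p = 0.0400), mt-Cytb at 0.20 (adjusted p = 0.0410) and Atp5d at -0.19 (adjusted p = 0.0487), against 5.73% of all genes called in that fit. Leaving out any other library of the 2 groups gave 0 called members. Across 18 alternatives, adjusted p lay in the range from 0.0400 to 0.665 for mt-Nd4, from 0.0410 to 0.672 for mt-Cytb and from 0.0487 to 0.665 for Atp5d. The groups did not overlap for 6 members, against 5.86% of all genes: Ndufab1, Ndufa13, Uqcrq and Ndufaf4 below wild type, and Atp5s and Cox7a1 above it.

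The ketogenic diet was compared with the standard diet in the knockout, a comparison that shares the standard-fed knockout libraries with the one above. edgeR's quasi-likelihood test called 0 of 101 members after Benjamini-Hochberg adjustment, against 1.16% of all genes, and limma-voom called 0. DESeq2 called 1 member, Atp5o, at 0.20 with an adjusted p of 0.0365, against 3.88% of all genes. At an unadjusted p under 0.05 there were 12 members, against 16.9% of all genes, 8 of them higher and 4 lower, against 7.83% and 9.1%. The median log2 fold change was 0.05 for nuclear members, with 62 of 89 above 0, beside 0.01 for all genes, and it was 0.03 without KC873RR. In all 68 of 101 members lay above 0, against 51.5% of all genes. Complex I had 30 of 36 nuclear genes above 0 (median 0.07), complex V 14 of 16 (median 0.07) and complex IV 7 of 17 (median -0.05). The 5 minor tissue forms of complex IV, near 1 CPM, all lay below 0, and without them complex IV had 7 of 12 above 0 (median 0.02). The 7 higher-count mitochondrial genes had a median of -0.10, with 6 of 7 below 0, and a median of -0.03, with 4 of 5 below 0, without mt-Nd4 and mt-Co1.

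Atp5o links the F1 head of the ATP synthase to its stalk. It measured 94.9, 90.0, 102 and 96.8 CPM on the standard diet and 111, 104, 120 and 105 CPM on the ketogenic diet. All 4 ketogenic values lay above the 4 standard diet values, and the log2 fold change was 0.20 ± 0.06 (SE; edgeR, adjusted p = 0.105). Atp5g1, 1 of 3 genes for the c ring subunit, measured 85.4, 79.1, 91.3 and 91.0 CPM on the standard diet and 102, 96.2, 107 and 93.7 CPM on the ketogenic diet. Its groups did not overlap either, and the log2 fold change was 0.20 ± 0.07 (SE; edgeR, adjusted p = 0.139). Atp5g3, a gene for the same subunit, had 0.14 ± 0.06 (SE; edgeR, adjusted p = 0.251). Ndufb8 and Ndufab1, accessory subunits of complex I, also had ketogenic values wholly above the standard diet values and mt-Nd2 wholly below, which made 5 members without overlap against 6.39% of all genes.

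mt-Nd4 measured 1311, 1371, 1396 and 1368 CPM in the ketogenic-fed knockout, a range narrower than on the standard diet only with KC888LL included. Against the standard diet values given above its log2 fold change was -0.18 ± 0.07 (SE; edgeR, adjusted p = 0.181), and that of mt-Cytb was -0.14 ± 0.06 (SE; edgeR, adjusted p = 0.229). The testis form Cox6b2, at 1.59 to 2.36 CPM on the standard and 0.602 to 1.72 CPM on the ketogenic diet, had -0.91 ± 0.35 (SE; edgeR, adjusted p = 0.196), an estimate from few counts. Without KC888LL edgeR called 3 members, Atp5o at 0.23 (adjusted p = 0.0311), mt-Nd4 at -0.23 (adjusted p = 0.0418) and mt-Cytb at -0.19 (adjusted p = 0.0479), against 6.18% of all genes. Across 18 alternatives, adjusted p lay in the range from 0.0311 to 0.407 for Atp5o, from 0.0418 to 0.504 for mt-Nd4 and from 0.0479 to 0.505 for mt-Cytb.

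In the same contrast 8 of 10 oligodendrocyte markers were called lower by edgeR, and the summed list ranged from 5251 to 5806 CPM on the standard and from 2021 to 3807 CPM on the ketogenic diet. All 9 microglial markers lay below 0 (median -0.74, 0 called, 8 at an unadjusted p under 0.05), and the list summed to 280 to 584 CPM and 252 to 271 CPM. Of 8 astrocyte markers 6 lay below 0 (median -0.29, 0 called, 3 lower at that p), and of 8 neuron markers 6 lay above 0 (median 0.11, 0 called, 1 higher at that p). Of 5 blood markers 4 were called lower, with a median log2 fold change of -2.02 and sums of 65.8 to 113 CPM on the standard and 17.4 to 32.5 CPM on the ketogenic diet. The choroid plexus list had a median of -2.63, with 0 of 6 called and sums of 47.3 to 553 CPM and 32.2 to 53.2 CPM. The part of these shifts in the values of the members was not tested.

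**Figure D4:**
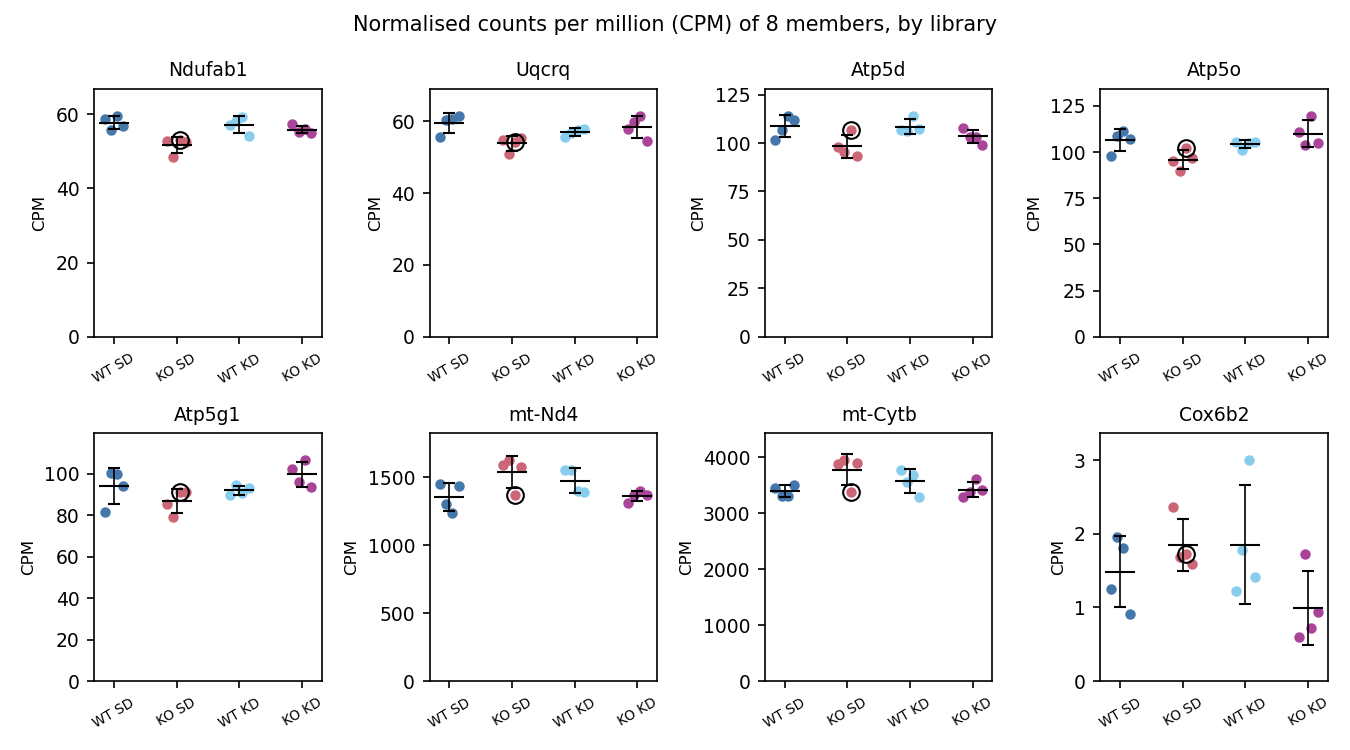
CPM of 8 members in each library (points), with group mean and SD (n = 4), axes from 0. WT and KO are wild type and Kcna1 knockout, SD and KD on the axis are standard and ketogenic diet, and the ringed point is KC888LL, which lies at 3378 CPM for mt-Cytb while the other 3 standard-fed knockout libraries lie at 3885 to 3957 CPM.

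In wild type, the ketogenic diet gave 0 called members of 101 by edgeR, against 0.0114% of all genes, and 0 by limma-voom and DESeq2. At an unadjusted p under 0.05 there were 2 members, against 5.46% of all genes, both higher, against 2.44%. They were mt-Nd1, a core subunit of complex I, at 0.12 ± 0.05 (SE; edgeR, adjusted p = 0.896) and Ndufs3, a core subunit of the same complex, at 0.12 ± 0.05 (SE; edgeR, adjusted p = 0.913). Ndufs3 measured 63.9, 65.8, 62.2 and 62.9 CPM on the standard diet and 71.6, 68.0, 67.2 and 69.1 CPM on the ketogenic diet. Its groups did not overlap, as in 1 further member, Cox6b1, which lay lower on the ketogenic diet, against 4.88% of all genes. mt-Nd4 followed at 0.12 ± 0.07 (SE; edgeR, adjusted p = 0.943). Among lower members, Ndufa1, a small subunit of complex I, had -0.18 ± 0.11 (SE), Cox7a2 -0.09 ± 0.06 (SE) and Ndufs7, a core subunit that carries an iron-sulfur cluster, -0.09 ± 0.06 (SE), with edgeR adjusted p of 0.969, 0.980 and 0.986. The nuclear median was -0.01, 47 of 101 members lay above 0, against 49.9% of all genes, and all 7 higher-count mitochondrial genes lay above 0 with a median of 0.09. The nuclear median was 0.01 without KC842L and also without KC897RR. Without 1 library, mt-Nd4 stood at 0.08 (KC897RR), Ndufa1 at -0.11 (KC897RR) and -0.12 (KC842L), Cox7a2 at -0.05 (KC900RLL) and Ndufs7 at -0.06 (KC843RL). In this contrast 0 of 10 oligodendrocyte markers were called, all 10 were lower at an unadjusted p under 0.05, and their median was -0.49, with sums of 4219 to 6566 CPM on the standard and 3490 to 4437 CPM on the ketogenic diet. The part of that shift in the values of the members was not tested.

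Knockout and wild type were also compared on the ketogenic diet, a comparison that shares its libraries with both diet contrasts. edgeR called 0 of 101 members, against 0.0172% of all genes, and limma-voom and DESeq2 called 0. At an unadjusted p under 0.05 there were 2 members, against 9.22% of all genes, 1 higher (5.24%) and 1 lower (3.97%), and 58 of 101 members lay above 0, against 51.0%. Of the nuclear members 55 of 89 lay above 0 (median 0.02), while 6 of the 7 higher-count mitochondrial genes lay below it (median -0.07). Ndufc2, an accessory subunit of complex I, measured 33.3, 35.2, 35.7 and 35.6 CPM in wild type and 47.4, 37.3, 39.1 and 36.5 CPM in the knockout. The groups did not overlap, with KC913RR far above the rest, and the log2 fold change was 0.20 ± 0.08 (SE; edgeR, adjusted p = 0.461), and 0.11 without KC913RR. Cox6b2 was at -0.91 ± 0.35 (SE; edgeR, adjusted p = 0.465), and at -0.58 without KC844RR. mt-Nd1 was the other member without overlap, against 3.98% of all genes, lower in the knockout, with a log2 difference of -0.09 ± 0.05 (SE; edgeR, adjusted p = 0.609). Ndufa12 and Ndufb8, accessory subunits of complex I, stood at 0.14 ± 0.07 and 0.10 ± 0.05 (SE), and mt-Nd4 at -0.12 ± 0.07 (SE), with edgeR adjusted p of 0.570, 0.593 and 0.607, and Ndufa12 was at 0.09 without KC842L. In this contrast 4 of 5 blood markers and 5 of 10 oligodendrocyte markers were lower at an unadjusted p under 0.05, with medians of -1.64 and -0.40 and 0 called, and the choroid plexus list had a median of -2.23 with 0 called. Of 7 endothelial markers 2 were higher and 2 lower at that p, and of 8 neuron markers 2 were higher and 1 lower, with 0 called. The part of these marker shifts in the values was not tested.

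The interaction asks whether the diet difference was unlike in the 2 genotypes. edgeR called 0 of 101 members, against 0.0% of all genes, and limma-voom and DESeq2 called 0. At an unadjusted p under 0.05 there were 10 members, against 7.48% of all genes, 5 above 0 (3.38%) and 5 below (4.09%). mt-Nd4 had the smallest p, with an interaction of -0.30 ± 0.09 on the log2 scale (SE; edgeR, adjusted p = 0.654), and mt-Cytb followed with -0.22 ± 0.08 (SE; edgeR, adjusted p = 0.654). On the other side, Atp5g1 had 0.23 ± 0.09, Atp5o 0.22 ± 0.08 and Uqcrq 0.18 ± 0.08 (SE), each with an edgeR adjusted p of 0.654, and Cox6b2 had -1.23 ± 0.49 (SE; edgeR, adjusted p = 0.654). All 7 higher-count mitochondrial genes lay below 0, with a median of -0.19. Of all 101 members 71 lay above 0, against 51.0% of all genes, and 68 of 89 nuclear members lay above 0, with a median of 0.04, or 0.03 without KC842L. Marker lists with 0 called by edgeR also lay to one side of 0 in the interaction: 5 of 5 blood markers lay below it (median -1.99, 4 at an unadjusted p under 0.05), as did 9 of 9 microglial markers (median -0.67, 3 at that p) and 10 of 10 oligodendrocyte markers (median -0.40, 1 at that p). Below 0 lay also 7 of 8 astrocyte markers (median -0.16, 1 at that p) and 5 of 6 choroid plexus markers (median -1.84, 0 at that p), and 6 of 8 neuron markers lay above it (median 0.06, 0 at that p). Of 7 endothelial markers 3 were lower and 1 higher at that p. Their part in the values was not tested.

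The precision of these comparisons can be read from the intervals. The median standard error of a nuclear member was 0.06 on the log2 scale in each pairwise contrast. In all 4 pairwise contrasts, 84 of 89 nuclear members had a 95% interval that lay wholly between -0.5 and 0.5, and the exceptions were Cox4i2, Cox6a2, Cox6b2, Cox7a1 and Ndufa4l2, the 5 tissue forms near 1 CPM. The log2 fold changes of those 84 members ranged from -0.20 to 0.20 over the 4 contrasts. By complex, they ran from -0.18 to 0.20 in complex I, from -0.06 to 0.10 in complex II, from -0.14 to 0.12 in complex III, from -0.11 to 0.12 in the 12 remaining genes of complex IV and from -0.18 to 0.20 in complex V. Of the core subunits of complex I, Ndufs1 and Ndufv1 stayed between -0.05 and 0.06, and Ndufs7 ran from -0.15, in the knockout contrast on the standard diet, to 0.08. The widest point estimate of a nuclear member in those 4 contrasts was 1.06 ± 0.40 (SE; edgeR, adjusted p = 0.258) for Cox7a1 in the knockout contrast on the standard diet, from levels of 0.471 to 1.59 CPM.

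**Figure D5:**
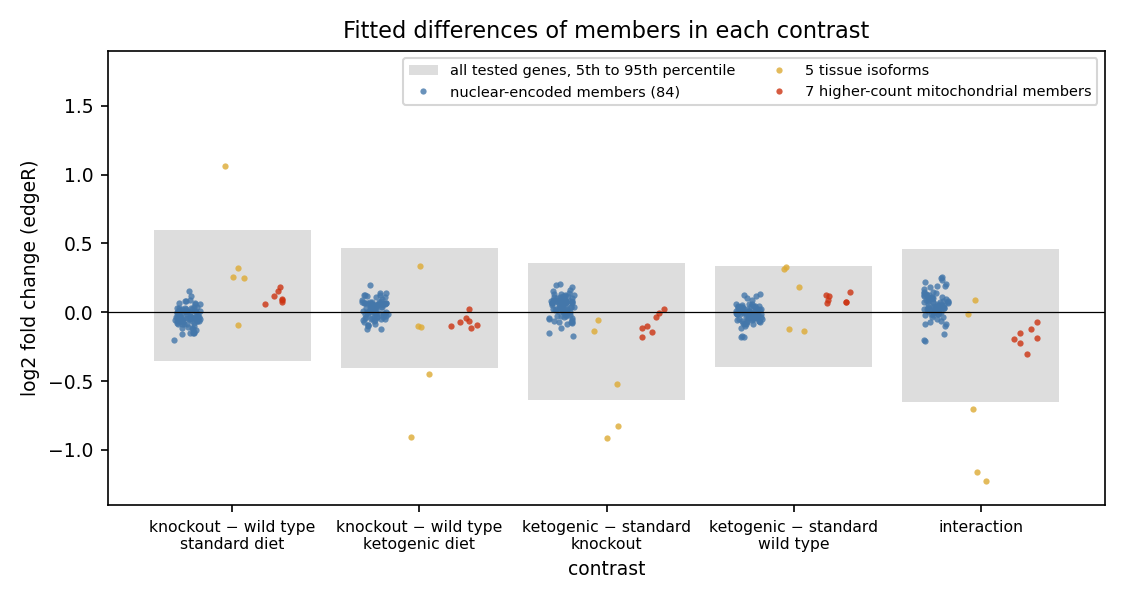
Fitted log2 fold changes of the 84 nuclear members, the 5 minor tissue forms and the 7 higher-count mitochondrial genes in each contrast, beside the 5th to 95th percentile of all 17469 tested genes (grey). The 84 nuclear members stay between -0.20 and 0.20 in the 4 pairwise contrasts.

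Related genes of the system were read from lists. Of the 47 tested assembly factors of the respiratory complexes, 8 of which (Ndufaf1 to Ndufaf8) are also counted among the 89 nuclear members, 0 were called in any contrast, and the same held for 13 genes of the tricarboxylic acid cycle, 20 of mitochondrial transcription and DNA maintenance, 13 carriers and cytochrome c genes, 10 PGC-1 regulators and 78 mitochondrial ribosomal proteins. With the ketogenic diet in the knockout, the tricarboxylic acid cycle list had a median of 0.10, with 12 of 13 genes above 0. At an unadjusted p under 0.05 there were 6 of the 13, against 16.9% of all genes. Of these, 5 were higher and 1 lower, against 7.83% and 9.1% of all genes. Ogdh, a subunit of the oxoglutarate dehydrogenase, had 0.18 ± 0.06, Idh3a, of the NAD-dependent isocitrate dehydrogenase, 0.15 ± 0.05, and Suclg2, of the GTP-forming succinyl-CoA ligase, -0.36 ± 0.14 (SE), with edgeR adjusted p of 0.128, 0.157 and 0.218. In the knockout contrast on the standard diet 12 of the 13 lay below 0, with a median of -0.07; these 2 contrasts share the standard-fed knockout libraries. Cyc1, cytochrome c1 of complex III, which the name rule does not catch, had 0.18 ± 0.06 with the diet in the knockout (SE; edgeR, adjusted p = 0.110). The 93 cytosolic ribosomal protein genes, also short and abundant transcripts, had a median of 0.00 in that contrast and 0 calls. The mitochondrial ribosomal RNAs were not analysed here.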

How the data were processed

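The authors deposited 1 table of raw counts per gene with 1 column per animal. The submitters' processing notes name the build mm10 and DESeq2; the aligner, counting program and use of strand were not given in the sources used here. Columns carry an animal tag, genotype and diet, and were assigned to their group only. Of 49315 identifiers, 49056 were in GENCODE M21, and 174 rows had no gene name. No per-sample column was left unused.

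Genes were filtered with filterByExpr (17469 left), scaled by TMM and fitted in edgeR 4.0.16 (R 4.3.3) with 1 coefficient per group over 16 libraries (12 residual degrees of freedom). Each contrast had a two-sided robust quasi-likelihood F test, with p adjusted by Benjamini-Hochberg over all tested genes, and called at 0.05. CPM used effective library sizes. The fit was also run on simulated data with changes larger than those of most members here, so that run does not address differences of their size. Members, lists and tests were chosen with earlier results of these data known. In each contrast the 3 members of smallest p in each direction with a mean of at least 1 CPM were named, besides mitochondrial, core and isoform genes, of which 1 is not reported here. Other names (members without overlap, genes of shared sequence, list genes) were chosen after their values were seen. Alternatives were DESeq2 1.42.0, limma-voom (limma 3.58.1) and 1 surrogate variable (sva 3.50.0). Others were Xist as a covariate, other scalings and filters, and each library left out. The labels do not say whether animals were housed or processed together.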

Additional observations from a re-analysis of the deposited data

Results flagged for a closer look

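Of 204 groups of 4 libraries examined (51 named genes and shares in each group), 9 had a library whose gap to its nearest neighbour, as a share of the group's range, passed Dixon's 95% critical value, and chance would give 10.2. In the knockout on the standard diet, KC888LL was lowest for mt-Cytb (3378 against 3885 to 3957 CPM, gap share 0.875) and mt-Atp6 (1.35 against 1.84 to 1.92 CPM, 0.854). In that group KC873RR was lowest for Atp5a1 (718 against 782 to 794 CPM, 0.835) and Ndufab1 (48.6 against 52.5 to 53.1 CPM, 0.866). In wild type on the ketogenic diet, KC843RL was lowest for Atp5o (101.3 against 105.1 to 105.6 CPM, 0.880) and Ndufv1 (137 against 142.6 to 143.2 CPM, 0.903), and KC844RR was highest for Atp5d (114 against 106 to 107 CPM, 0.867). KC900RLL was highest for Cox7a1 in wild type on the standard diet (0.915 against 0.471 to 0.503 CPM, 0.930). KC934R was lowest for Ndufs7 in the knockout on the ketogenic diet (49.6 against 54.2 to 54.7 CPM, 0.902).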

How the results depend on the processing

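The count of called members was 0 in each contrast. DESeq2 gave 1 for the diet in the knockout (Atp5o). Over the fits that left out 1 library, the count ranged from 0 to 3 for genotype on the standard diet and from 0 to 3 for the diet in the knockout, with 3 reached without KC888LL, and was 0 in the other contrasts. Of 161 comparisons of a main result with an alternative other than a left-out library, 160 kept their side of the threshold or stayed within the spread. The pooled SD within groups of the mean log2 CPM was 0.041 for nuclear and 0.135 for mitochondrial members. Several medians were smaller than that, so staying within the spread does not show that a median kept its sign or size. The uncalled median of the mitochondrial members for the diet in the knockout was near 0 and ran from -0.10 to 0.03 over left-out libraries. The 7 higher-count genes, a subset chosen after seeing the data, gave -0.10. Over left-out libraries the nuclear median ran from -0.04 to -0.01 and the mitochondrial from 0.07 to 0.16 for genotype on the standard diet, from 0.00 to 0.03 and -0.11 to -0.02 for genotype on the ketogenic diet, and from -0.02 to 0.01 and 0.06 to 0.13 for the diet in wild type. These mitochondrial medians include genes from mt-Co2 to mt-Nd4l. With all libraries, the 7 higher-count genes had medians of 0.10, -0.07 and 0.09 in these contrasts, in that order. The 5 tissue forms had intervals reaching beyond 0.5 on the log2 scale in every contrast, at levels near 1 CPM; mt-Nd3 had too few counts to be tested. No paired analysis was possible because the columns carry animal tags and no replicate numbers.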
